A study of Homo sapiens with 8 samples.

Results

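Messenger RNA levels of the cytosolic translation initiation and elongation factors were described in human HepaRG cells, in their gene-edited derivative M14A, and in M14A cells after bioprinting. The members are the protein-coding genes of the deposited table whose symbols begin with EIF1 to EIF6 or EEF1, or are EEF2, without the eIF2 kinases (symbols beginning with EIF2AK). There are 65 such genes among 58735 genes in all, 19951 of them protein-coding. The symbol rule used no measured value. 1 member is Y-linked, and its level is not given. Of the other 64 members, 58 reached 1 FPKM in at least 2 libraries and were tested. FPKM, the unit of all levels here, is a fragment count divided by gene length and by a factor for each library.

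HepaRG is a human hepatic progenitor line that can form hepatocyte-like and biliary-like cells. The labels give liver as the tissue and hepatic stem cells as the cell type for every sample. The HepaRG plate group holds 3 libraries of wild-type cells in planar culture. The M14A plate group holds 3 libraries of HepaRG-derived M14A cells, genotype FoxM1/HNF4A transfected, in the same planar culture. The M14A printed group holds 2 libraries of the same edited cells, printed in GP bioink and collected 4 h after printing. Cells from flasks were detached and pelleted, whereas printed constructs were frozen and ground, so printing and the way of collection cannot be told apart. No label says that libraries came from separate cultures, and p-values then reflect no more than the scatter among these libraries, which could be technical in origin. The number of M14A clones is not given in the sources used here.

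Translation starts when eIF2 carries the initiator tRNA to the small ribosomal subunit, which eIF1, eIF1A, eIF3 and eIF5 prepare for scanning. The eIF4F factors (the cap-binding eIF4E, the scaffold eIF4G and the helicase eIF4A) bring the mRNA, and the eIF4E-binding proteins block that step until mTORC1 phosphorylates them. During elongation eEF1A delivers aminoacyl-tRNA, the eEF1B subunits recharge eEF1A with GTP, and eEF2 moves the ribosome by a codon. Many elongation factor and ribosomal protein mRNAs begin with a C followed by a run of pyrimidines, the 5′ terminal oligopyrimidine motif, through which mTORC1 and LARP1 control their translation and stability. In the liver these factors serve a large output of secreted proteins.

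The start of the mRNA is shown first, because the results in printed cells are also given by this sequence. Each line gives 40 bases around a RefSeq transcription start (GRCh38.p14), 5′ to 3′ on the gene's strand, with 20 bases before the start and 20 from it. Capitals mark the run of C and T that begins at the annotated start. The motif searched was a C at the annotated start followed by at least 4 bases that are each C or T, on the transcript strand only.
EEF1A1: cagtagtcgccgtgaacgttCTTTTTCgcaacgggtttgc
EEF1B2: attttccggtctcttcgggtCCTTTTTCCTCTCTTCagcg
EEF2: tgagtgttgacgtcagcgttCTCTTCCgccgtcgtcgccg
EIF3F: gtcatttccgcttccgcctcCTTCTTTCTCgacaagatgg
EIF3K: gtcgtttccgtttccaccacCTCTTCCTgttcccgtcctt
EIF4A2: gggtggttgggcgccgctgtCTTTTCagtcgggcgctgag
EIF2A: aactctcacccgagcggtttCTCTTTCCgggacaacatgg
EIF4B: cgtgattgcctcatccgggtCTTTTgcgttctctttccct
In order, these windows lie at chr6:73521013-73521052 (minus strand), chr2:206159875-206159914 (plus strand), chr19:3985444-3985483 (minus strand), chr11:7987317-7987356 (plus strand), chr19:38619168-38619207 (plus strand), chr3:186783557-186783596 (plus strand), chr3:150546767-150546806 (plus strand) and chr12:53006436-53006475 (plus strand). EEF1B2 has another RefSeq start upstream without the run, and the one with the run is shown. A member with any listed start that holds the motif counts as having it.

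The next windows are from the 4 members that fell in printed cells, none of which has the motif at a listed start.
EIF1AD: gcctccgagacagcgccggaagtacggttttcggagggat
EIF4G1: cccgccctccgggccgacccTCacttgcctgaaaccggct
EIF4A1: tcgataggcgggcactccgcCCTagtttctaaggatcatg
EIF4ENIF1: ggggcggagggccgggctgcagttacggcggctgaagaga
They lie at chr11:66002138-66002177 (minus strand), chr3:184315144-184315183 (plus strand), chr17:7572805-7572844 (plus strand) and chr22:31489823-31489862 (minus strand). EIF4G1 has 3 listed starts, of which the second is shown. Counted per promoter, 4.07% of all 35116 promoters of the table hold the motif, and 13 of the 69 promoters of the members do (18.8%). Counted per gene over any listed start, 7.52% of the 9033 tested protein-coding genes with an entry hold it, and 13 of the 46 tested members with an entry do (28.3%). Of the 64 members described, 52 have an entry, and those with the motif are EEF1A1, EEF1B2, EEF2, EIF2A, EIF2D, EIF2S3, EIF2S3B, EIF3D, EIF3F, EIF3K, EIF3M, EIF4A2 and EIF4B.

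The libraries held 15632154 to 19148262 reads assigned to genes, recovered from the FPKM steps. HNF4A, which the genotype names, was at 5.67, 6.24 and 6.50 FPKM in HepaRG plate, 37.9, 43.1 and 41.7 in M14A plate and 17.1 and 13.6 in printed cells, and FOXM1 lay between 8.92 and 14.9 FPKM in all 8 libraries. Of 11 hepatocyte and hepatic progenitor markers, 7 had a mean of at least 1 FPKM in HepaRG plate and 8 in each M14A group, with EPCAM at 0 in both M14A groups and TTR under 1 FPKM throughout. Summed, they reached 187 to 210.5 FPKM in the HepaRG libraries, 552 to 941 in plate M14A and 954 to 1122 in printed cells. SERPINA1, KRT8 and KRT18 made up most of that sum, and SERPINA1 alone had group means of 9.55 ± 0.837, 334 ± 109 and 459 ± 29.6 FPKM (SD, n = 3, 3 and 2). Others of the list were lower in M14A plate: SOX9 fell (-0.62, adjusted p = 0.0058), KRT19 was at 41.2, 41.5 and 45.4 and 49.02, 11.6 and 11.6 FPKM in the 2 plate groups and not called, and AFP stayed under 1 FPKM. The 9 leukocyte, endothelial and stellate markers summed to 5.31 to 6.15, 11.0 to 15.5 and 13.4 to 13.8 FPKM, with CDH5 at 0 in every library and ACTA2 at 11.2 ± 2.26 FPKM (SD, n = 3) in M14A plate. They did not rise as a set: 3 had a mean of at least 1 FPKM in HepaRG plate and 1 in each M14A group. Of the 3 tested, 1 rose (2.30) and 2 fell (-0.72 and -1.39) in M14A plate, where 16.1% and 14.7% of all genes were called. These calls held when any 1 library was left out. M14A plate library 1 stood apart: log2 values correlated with libraries 2 and 3 at 0.957 and 0.948, against 0.988 between those 2. Members whose call changed without it are named with the counts below.

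The deposited FPKM do not have equal totals. Totals were 254141 to 266419 for the HepaRG libraries, 272290 to 350931 for plate M14A, and 514152 and 499995 for printed M14A, while the median gene differed by -0.04 and 0.01 (log2) in the 2 comparisons. Scaling all libraries to equal FPKM totals moved the median of all genes to -0.20 in M14A against HepaRG plate and to -0.51 in printed against plate M14A. At equal totals 38.0% of all calls in the first comparison and 6.96% in the second were rises, against 52.3% and 53.3% on the deposited scale. Directions below are signs of the log2 fold change against 0 on the deposited scale, with nothing subtracted for the median gene. By that sign 31 of the 58 tested members turned at equal totals in printed cells and 12 in M14A plate, with 11 and 7 after quantile normalization. Against the median gene, 43 members in printed cells and 24 in M14A plate lay above it at equal totals. Mitochondrially encoded genes took 6.91 to 7.25% of reads in the HepaRG libraries, 8.21 to 9.72% in plate M14A, and 13.3 and 16.4% in printed cells. The read-weighted median gene length was 5390 to 5539 bases, 5109 to 5410 bases, and 4344 and 4550 bases. The part of these shifts in the results was not tested, except where a rescaled or length-corrected value is given.

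The members took 2.28 to 2.33% of assigned reads in the HepaRG libraries, 2.25 to 2.49% in plate M14A, and 3.06 and 2.90% in printed cells. On the FPKM scale, which compares genes per length, they summed to 4118 ± 103 (SD, n = 3), 4621 ± 875 (n = 3) and 7905 ± 614 (n = 2). As a share of each library's FPKM total they made up 1.58 to 1.59%, 1.49 to 1.60%, and 1.62 and 1.49%, so the higher printed sum was not seen on that scale. EEF1A1 and EEF2 together made up 46.1 to 46.5% of the member sum in the HepaRG libraries, 49.2 to 54.5% in plate M14A and 54.0 to 55.4% in printed cells. The 14 eIF3 genes summed to 670.1 ± 22.7, 607 ± 99.3 and 1029 ± 59.1 FPKM. The eIF4F and helicase genes summed to 453 ± 4.5, 455 ± 43.3 and 469 ± 22.5 FPKM, which is 0.171 to 0.179%, 0.144 to 0.156%, and 0.0882 and 0.0970% of the FPKM totals. Their share of the member sum was 10.8 to 11.3% in the HepaRG libraries, 9.0 to 10.5% in plate M14A, and 5.4 and 6.5% in printed cells. In bulk libraries fewer cells of a kind and less RNA per cell cannot be told apart.

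**Figure D1:**
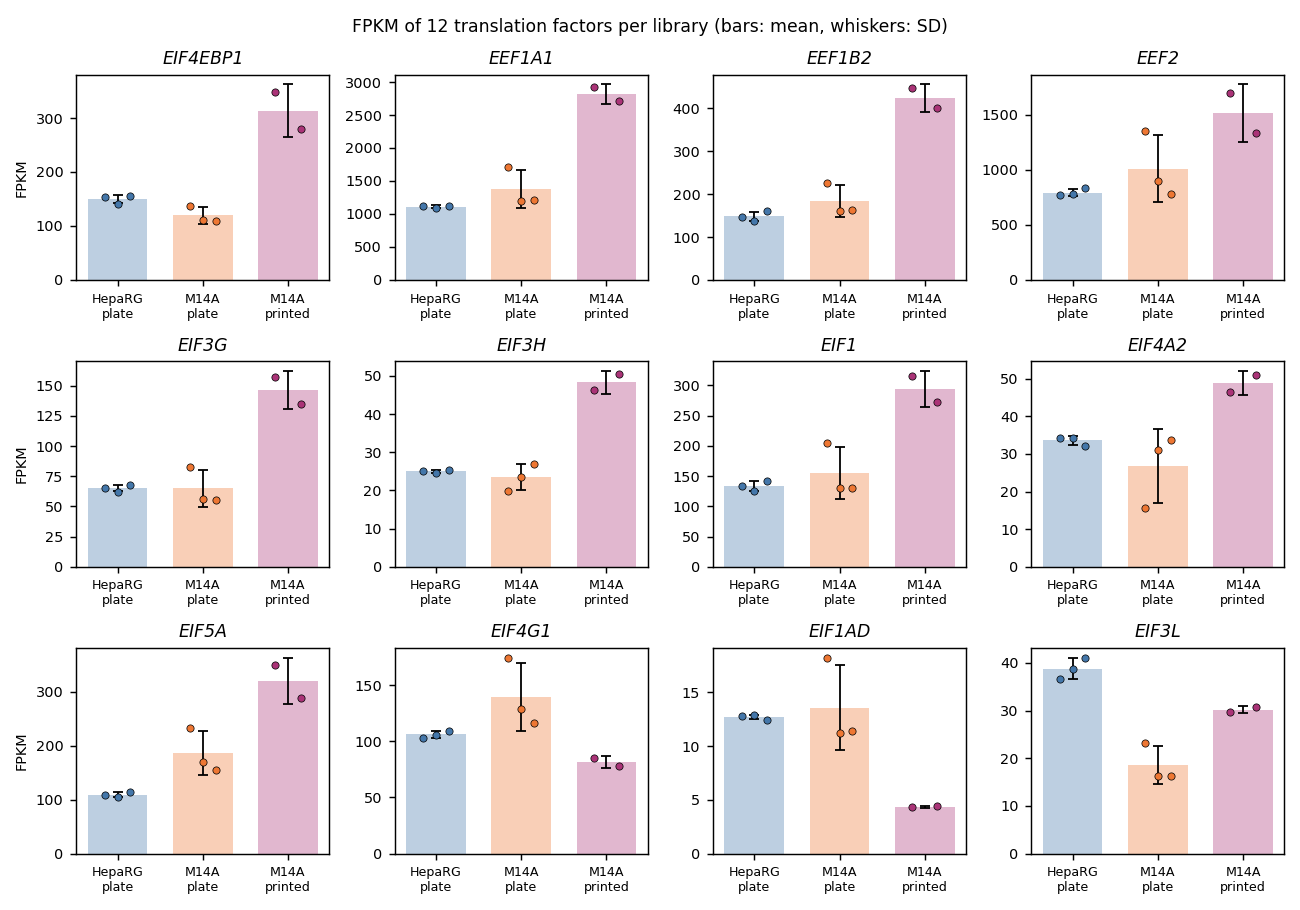
FPKM of 12 translation factors in each library; points are libraries, bars are group means and whiskers are the SD (n = 3, 3 and 2). EEF1A1, EEF1B2, EIF3G, EIF3H and EIF4EBP1 lie higher in both printed libraries than in any plate library, and EIF1AD and EIF4G1 lie lower than in any plate library.

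Between printed and plate M14A cells, on the deposited scale, 25 of the 58 tested members rose and 4 fell (limma, Benjamini-Hochberg adjusted p below 0.05 over 14349 genes). Over all genes tested, 33.2% were called, 17.7% higher and 15.5% lower. The median member lay 0.46 (log2) higher and the median gene 0.01 higher, and 48 members were on the higher side against 50.7% of all genes. The 2 groups did not overlap in 34 members that were higher and 5 that were lower, where 26.9% and 24.4% of all genes were so. The member median was -0.21 at equal FPKM totals, -0.092 at equal totals without mitochondrial genes and 0.19 after quantile normalization, where the median gene lay at -0.51, -0.39 and 0.03. At equal totals 4 members rose and 17 fell (6.90% and 29.3%), where 3.45% of all genes were called higher and 46.1% lower, and 43 of 58 members lay above the median gene. Of the 25 that rose, 16 kept their direction at equal totals and 9 turned, and after quantile normalization 20 kept it and 5 turned. The 4 higher at equal totals were EIF4EBP1, EEF1B2, EIF3G and EEF1A1. A further 22 members that were not called also changed sign at equal totals, from 0.05 to 0.61 on the deposited scale to -0.65 to -0.13. They were EEF1A2, EEF1AKMT1, EEF1AKMT4, EEF1D, EEF2, EIF1AX, EIF1B, EIF2B1, EIF2B2, EIF2B3, EIF2B4, EIF2B5, EIF2S1, EIF3B, EIF3CL, EIF3D, EIF4E, EIF4EBP3, EIF4G2, EIF4H, EIF5 and EIF5B. Of these, EEF1D, EEF2, EIF2B1, EIF3B, EIF4G2 and EIF4H were also negative after quantile normalization (-0.53 to -0.014).

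These counts depended on M14A plate library 1 and on the printed libraries. Without M14A plate library 1 the counts were 39 rises and 7 falls, where the share of all genes called also grew, to 28.4% higher and 27.1% lower. The 14 further rises were EEF1A2, EEF1AKMT4, EEF2, EIF2B1, EIF2B2, EIF2B3, EIF2B4, EIF2B5, EIF3CL, EIF3D, EIF4G2, EIF4H, EIF1AX and EIF1B (adjusted p 0.00017 to 0.050), and the 3 further falls were EIF3A, EIF4EBP2 and EIF4G3 (adjusted p 0.014 to 0.037). Among the called values, 1 moved by over 1.5 times under a single leave-out: EIF4A2 went from 0.91 to 0.58 without M14A plate library 1. Without printed library 1 they were 7 and 1 (7.99% and 9.70% of all genes), and without printed library 2 they were 14 and 1 (10.9% and 8.62%). Without the other libraries they lay between 18 and 24 rises with 4 falls (13.1 to 15.6% and 11.7 to 14.5% of all genes). EIF4EBP1, EEF1B2, EEF1A1, EIF3G, EIF3H and EIF2D rose, and EIF1AD fell, under each of the 8 single leave-outs. With only the M14A plate and printed libraries in the fit, 8 members rose and 1 fell (9.72% and 8.56% of all genes).

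Between M14A and HepaRG in planar culture, 5 of the 58 tested members rose and 7 fell, where 30.9% of all genes were called, 16.1% higher and 14.7% lower. The median member lay at -0.10 (log2) and the median gene at -0.04, and 24 members were on the higher side against 46.6% of all genes. The 2 groups did not overlap in 9 members that were higher and 18 that were lower, where 25.7% and 27.4% of all genes were so. The members that rose were EIF5A, its near copy EIF5AL1, EEF1AKMT4, EIF6 and EIF4EBP2. Those that fell were EIF3L, EIF4G3, EIF3D, EIF3B, EEF1AKMT2, EIF2S3B and EEF1E1. All 12 kept their direction at equal FPKM totals and after quantile normalization. At equal totals 5 members rose and 16 fell, where 14.4% of all genes were called higher and 23.4% lower. Without M14A plate library 1 the counts were 5 and 14, where 20.3% and 22.7% of all genes were called. The 8 further falls there were EIF2S2, EIF2S3, EIF3J, EIF4EBP1, EIF4ENIF1, EIF4G2, EIF4H and EIF1AX (adjusted p 0.0015 to 0.047), while EEF1E1 was not called. Members that were not called and turned at equal totals, from 0.02 to 0.18 to values of -0.18 to -0.011, were EEF1AKMT1, EIF1, EIF1AD, EIF2B2, EIF2B4, EIF2B5, EIF3K, EIF3M, EIF4A1, EIF4A3, EIF4B and EIF4E2. After quantile normalization EIF1, EIF1AD, EIF3I, EIF3K, EIF3M, EIF4A3 and EIF4B were negative (-0.22 to -0.015). Leaving out a HepaRG plate library gave 2 or 3 rises and 4 falls, where 11.1 to 11.5% and 8.61 to 8.73% of all genes were called. Both comparisons share the M14A plate libraries, so the values for a gene in the 2 comparisons are not independent.

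**Figure D2:**
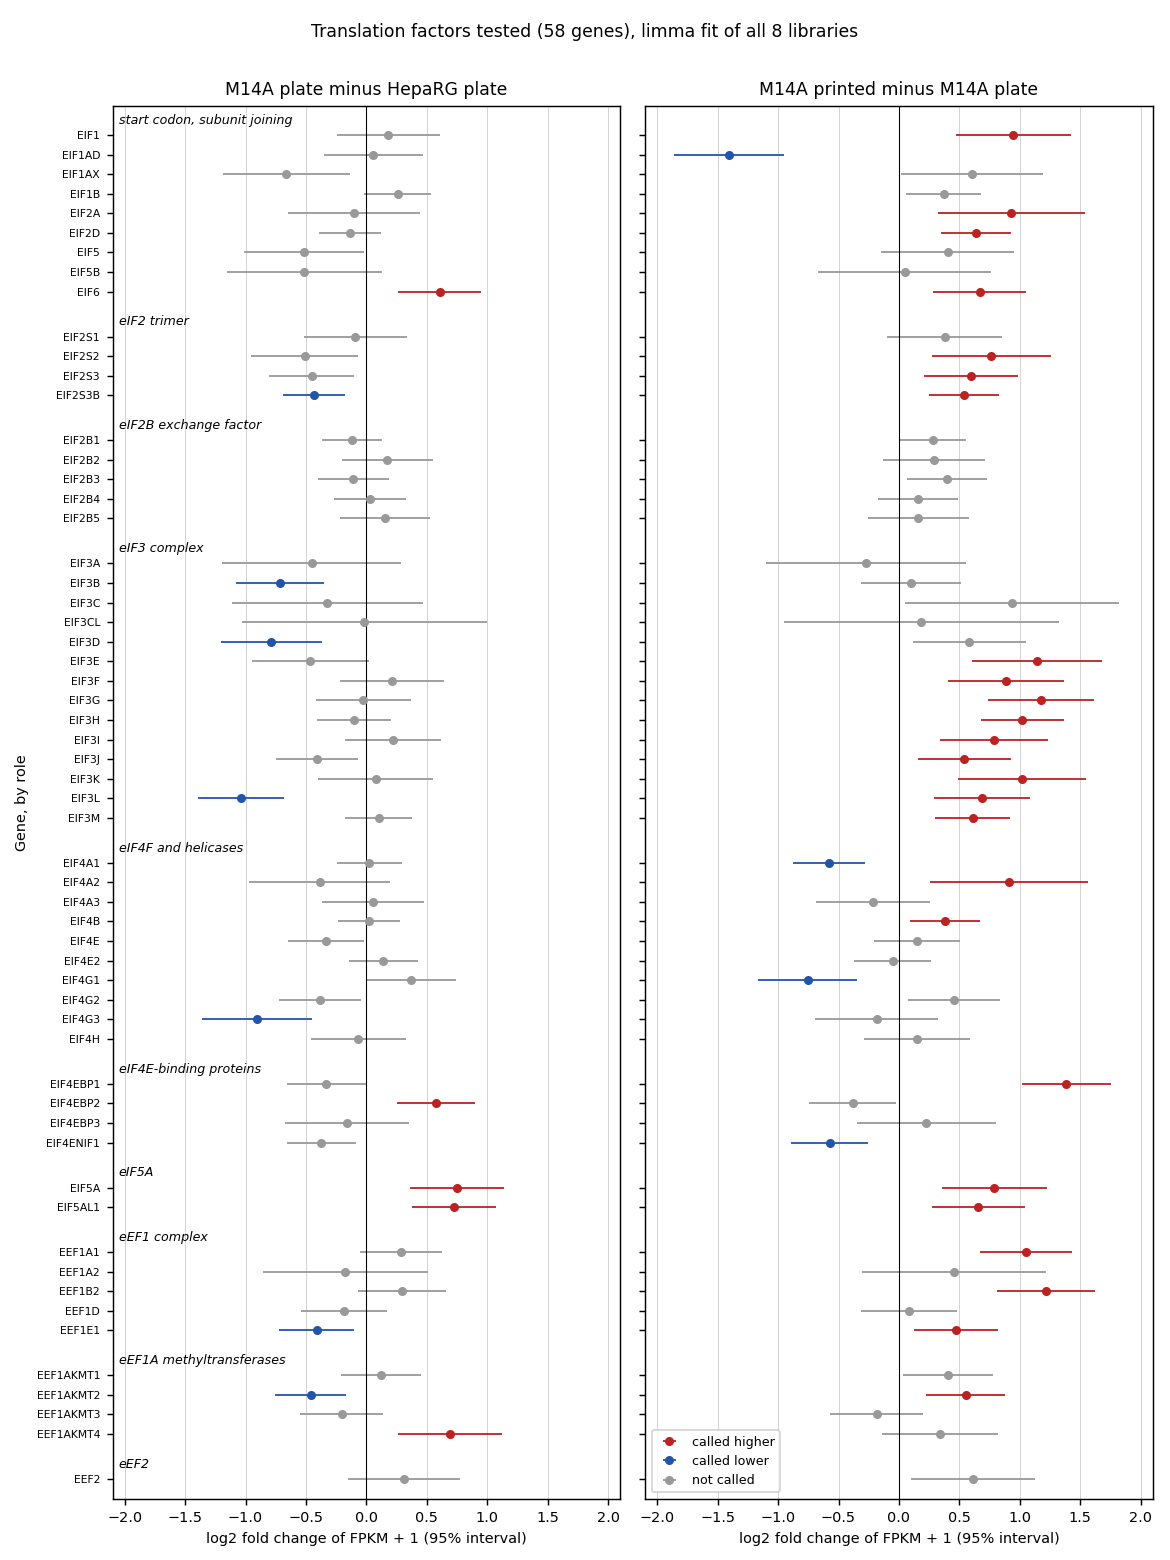
Log2 fold change of FPKM + 1 with its 95% interval for the 58 tested members, grouped by role, for M14A against HepaRG plate (left) and printed against plate M14A (right); red and blue points were called higher or lower and grey points were not called. On the right 25 points are red and 4 are blue on the deposited scale; at equal FPKM totals 9 of those 25 turn direction and 4 are called higher.

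Factors of start codon selection and subunit joining were higher in printed cells in 4 of 9 members and lower in 1, on the deposited scale. None was called higher and 2 were called lower at equal FPKM totals, with the median turning from 0.61 to -0.13, and 7 of 9 lay above the median gene. EIF1, which guards the choice of the start codon, was at 134, 126 and 141 FPKM in HepaRG plate, 204, 130.1 and 131 in M14A plate and 315 and 273 in printed cells. Both printed libraries lay above every plate library. EIF1 rose in printed cells (0.95 on the log2 scale, SE 0.21, adjusted p = 0.0099) and was not called between the plate groups (0.18, adjusted p = 0.49). EIF1AD encodes a protein with an eIF1A domain and lies at chr11:65996545-66002176. It was at 12.8, 12.8 and 12.5 FPKM in HepaRG plate, 18.2, 11.2 and 11.4 in M14A plate and 4.29 and 4.43 in printed cells. This was the largest fall among the members, to 0.321 times the plate mean (-1.41 on the log2 scale, SE 0.20, adjusted p = 0.0016), and both printed libraries lay below all 6 plate libraries.

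EIF2A and EIF2D are reported to bring a tRNA to the ribosome without eIF2. EIF2A was at 19.2, 17.5 and 18.4 FPKM in HepaRG plate, 10.8, 20.1 and 22.5 in M14A plate and 31.1 and 35.7 in printed cells, and M14A plate library 1 was the lowest of all. EIF2A rose in printed cells (0.93 on the log2 scale, SE 0.27, adjusted p = 0.028). EIF2D was at 8.18, 7.62 and 7.78 FPKM in HepaRG plate, 7.84, 6.81 and 6.57 in M14A plate and 11.1 and 11.9 in printed cells, a rise of 0.64 (adjusted p = 0.0065) that turned to -0.05 at equal FPKM totals. EIF6 keeps the large ribosomal subunit from joining too early. Its values were 68.8, 72.6 and 77.4 FPKM in HepaRG plate, 135, 104 and 98.6 in M14A plate and 193 and 164 in printed cells, without overlap between any groups. EIF6 rose in M14A plate (0.61 on the log2 scale, SE 0.15, adjusted p = 0.017) and again in printed cells (0.67, adjusted p = 0.017), the second value turning to -0.09 at equal totals and -0.03 after quantile normalization. Of the EIF6 coding bases 33.3% lie in other annotated genes.

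The other 4 of these factors were not called in either comparison with all libraries in the fit. EIF1AX, which fills the ribosomal A site during scanning, was at 34.2 ± 0.237 FPKM (SD, n = 3) in HepaRG plate, 22.2 ± 7.36 (n = 3) in M14A plate and 32.9 ± 2.25 (n = 2) in printed cells. EIF5, the GTPase activator of eIF2, and EIF5B, which joins the subunits, showed log2 differences of 0.40 and 0.05 between printed and plate M14A, and -0.33 and -0.63 at equal FPKM totals. EIF1B, a close relative of EIF1, differed by 0.37 (adjusted p = 0.067), by -0.36 at equal totals, and was called without M14A plate library 1 (0.45, adjusted p = 0.0027). Without that library EIF1AX was called as well, lower in M14A plate (-0.36, adjusted p = 0.0070) and higher in printed cells (0.31, adjusted p = 0.015). Single libraries decided several of the calls in this group. EIF1 did not pass in printed cells without printed library 1 (adjusted p = 0.075). EIF2A was lost in that comparison without either of the 2 printed libraries (adjusted p 0.088 to 0.14). EIF6 failed there without M14A plate library 2 or printed library 1 (adjusted p 0.056 to 0.12). EIF6 was not called in M14A plate without HepaRG plate library 1 or 2 (adjusted p 0.064 to 0.076).

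The eIF2 trimer genes were all on the higher side in printed cells on the deposited scale, with 3 of 4 called. Only 1 of 4 was on the higher side at equal FPKM totals and none was called, the median turning from 0.57 to -0.10, though all 4 lay above the median gene. EIF2S2, the beta subunit, was at 48.1, 45.9 and 45.3 FPKM in HepaRG plate, 23.2, 36.9 and 39.1 in M14A plate and 52.5 and 58.6 in printed cells. The M14A plate libraries lay below the libraries of both other groups. EIF2S2 rose in printed cells (0.76 on the log2 scale, SE 0.22, adjusted p = 0.026) and was not called in M14A plate (-0.51, adjusted p = 0.077). EIF2S3, the gamma subunit that binds the initiator tRNA, was at 127, 125 and 124 FPKM in HepaRG plate, 74.3, 97.7 and 105 in M14A plate and 128 and 149.6 in printed cells. It rose by 0.60 (adjusted p = 0.028) in printed cells, a value that turned to -0.16 at equal totals and -0.04 after quantile normalization.

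EIF2S3B is a near-identical copy of EIF2S3, so reads may be split between them and both values are uncertain. It was at 3.66 ± 0.204, 2.46 ± 0.332 and 4.02 ± 0.186 FPKM (SD, n = 3, 3 and 2). It fell in M14A plate (-0.43, adjusted p = 0.020) and rose in printed cells (0.54, adjusted p = 0.013), the rise turning to -0.04 at equal FPKM totals. EIF2S1, the alpha subunit that stress kinases phosphorylate, was at 19.2, 18.8 and 19.8 FPKM in HepaRG plate, 13.03, 20.2 and 22.1 in M14A plate and 22.6 and 24.9 in printed cells. It was called in neither comparison (-0.09 and 0.38, adjusted p = 0.73 and 0.20), and the second value was -0.35 at equal totals. EIF2S2 and EIF2S3B was not called in printed cells without either of the 2 printed libraries (adjusted p 0.052 to 0.13). EIF2S3 lost its call in printed cells without any 1 of the 3 HepaRG plate libraries, M14A plate library 2 or either of the 2 printed libraries (adjusted p 0.051 to 0.16). EIF2S3B was not called in M14A plate without any 1 of the 3 HepaRG plate libraries or M14A plate library 2 (adjusted p 0.065 to 0.097).

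None of the 5 eIF2B genes, which encode the factor that reloads eIF2 with GTP, passed the test in either comparison with all libraries. Without M14A plate library 1 all 5 were called higher in printed cells, at 0.28 to 0.49 (adjusted p 0.0043 to 0.015). With all libraries their log2 differences were 0.16 to 0.40 in printed cells, at adjusted p of 0.063 to 0.53, and -0.12 to 0.17 in M14A plate. The median of the 5 in printed cells was -0.46 at equal FPKM totals, and 4 of them were called lower. At that scaling the median gene lay at -0.51 and 46.1% of all genes were called lower. EIF2B5, the catalytic epsilon subunit, was at 9.60, 9.02 and 10.3 FPKM in HepaRG plate, 14.2, 9.56 and 9.28 in M14A plate and 12.3 and 12.1 in printed cells. The highest value was M14A plate library 1 and the groups overlapped. The 95% interval of the difference between printed and plate cells was -0.26 to 0.58 (log2).

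eIF3 is the largest initiation factor, a scaffold on the small ribosomal subunit built from subunits a to m. On the deposited scale 9 of its 14 genes rose in printed cells and none fell, with a median of 0.74 (log2). With equal FPKM totals 1 rose and 1 fell and the median was -0.01, which is 0.51 above the median gene, and 12 of 14 lay above that gene. After quantile normalization 5 rose, 1 fell and the median was 0.34. EIF3G, which contacts the mRNA entry side of the ribosome, was at 65.4, 62.4 and 67.9 FPKM in HepaRG plate, 82.97, 56.6 and 55.8 in M14A plate and 157 and 135 in printed cells. Both printed libraries exceeded every plate library. Its rise was 1.18 ± 0.19 (SE, adjusted p = 0.0029) and remained a call at equal totals (0.42) and after quantile normalization (0.52). EIF3H, a subunit with an MPN domain, was at 25.1, 24.5 and 25.4 FPKM in HepaRG plate, 19.98, 23.4 and 26.8 in M14A plate and 46.2 and 50.4 in printed cells. It rose by 1.02 ± 0.15 (adjusted p = 0.0019), with no overlap between printed and plate libraries.

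EIF3E, the e subunit, was at 30.9, 27.4 and 28.9 FPKM in HepaRG plate, 14.3, 23.99 and 25.9 in M14A plate and 43.3 and 51.3 in printed cells, a rise of 1.14 (adjusted p = 0.0076). EIF3F, the other MPN-domain subunit, was at 20.7, 18.6 and 22.1, 31.2, 21.96 and 19.7 and 50.6 and 39.8 FPKM in the same order of groups, a rise of 0.89 (adjusted p = 0.013). EIF3K was at 81.8, 75.7 and 86.9, 121, 73.9 and 70.7 and 191 and 160.4 FPKM, a rise of 1.02 (adjusted p = 0.012). In all 3 genes both printed libraries lay above all 6 plate libraries, and M14A plate library 1 was the lowest plate value in EIF3E and the highest in EIF3F and EIF3K. EIF3I, a WD-repeat subunit, was at 156, 149 and 167, 242, 160.1 and 159.9 and 330.4 and 305 FPKM, a rise of 0.79 (adjusted p = 0.016) that turned to -0.15 after quantile normalization. EIF3M, EIF3L and the loosely bound EIF3J rose by 0.61, 0.69 and 0.54, and turned to -0.13, -0.04 and -0.19 at equal FPKM totals. EIF3E was not called in printed cells without printed library 2 (adjusted p = 0.058). EIF3F and EIF3K did not pass the test there without printed library 1 (adjusted p 0.084 to 0.10). EIF3I and EIF3L lost the call without M14A plate library 2 or either of the 2 printed libraries (adjusted p 0.051 to 0.096). EIF3J failed in the same comparison without any 1 of the 3 HepaRG plate libraries, M14A plate library 2 or either of the 2 printed libraries (adjusted p 0.057 to 0.18). EIF3M was no longer called without either of the 2 printed libraries (adjusted p 0.053 to 0.058).

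3 eIF3 genes fell in M14A plate against HepaRG plate, and these falls held under all 8 leave-outs, at equal FPKM totals and after quantile normalization. EIF3L, which pairs with EIF3K at the edge of the complex, was at 36.7, 38.6 and 41.00 FPKM in HepaRG plate, 23.2, 16.2 and 16.4 in M14A plate and 29.7 and 30.6 in printed cells. Every M14A plate library lay below every HepaRG library, and the printed libraries lay between (-1.04 on the log2 scale, SE 0.16, adjusted p = 0.0013 in M14A plate). EIF3D, which can itself bind the mRNA cap, was at 63.7, 63.4 and 66.1 FPKM in HepaRG plate, 50.3, 32.00 and 31.2 in M14A plate and 56.8 and 54.7 in printed cells (-0.79 on the log2 scale, SE 0.18, adjusted p = 0.012 in M14A plate). EIF3B, a core scaffold subunit, was at 80.01, 78.6 and 81.9, 60.6, 44.6 and 41.98 and 56.8 and 47.5 FPKM and fell by 0.72 (adjusted p = 0.010) in M14A plate. Within its group M14A plate library 1 was the highest in all 3 genes. EIF3L shares 51.8% of its exon bases with other annotated genes, chiefly AL022311.1, which makes its level uncertain.

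Other eIF3 subunits were not called in printed cells. EIF3A, the largest subunit, was at 53.6, 51.8 and 50.6 FPKM in HepaRG plate, 20.97, 50.7 and 49.9 in M14A plate and 24.5 and 39.2 in printed cells. M14A plate library 1 and printed library 1 were both low, the groups overlapped, and EIF3A was called in neither comparison (-0.45 and -0.27, adjusted p = 0.32 and 0.60). Without M14A plate library 1 its M14A plate value was -0.046 and its printed value was called lower (-0.68, adjusted p = 0.019). EIF3B differed by 0.10 between printed and plate M14A (adjusted p = 0.70), and by -0.65 at equal FPKM totals and -0.31 after quantile normalization. EIF3D differed by 0.58 and was not called (adjusted p = 0.058), was at -0.16 at equal totals, and was called without M14A plate library 1 (0.80, adjusted p = 0.00017). EIF3C and EIF3CL are near-identical copies on chromosome 16 whose reads may be split, so they are given as a sum: 11.6 ± 4.0, 10.7 ± 5.3 and 17.4 ± 9.3 FPKM in HepaRG plate, M14A plate and printed cells. Neither copy was called with all libraries, and EIF3CL was called higher in printed cells without M14A plate library 1 (0.76, adjusted p = 0.050).

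The eIF4F and helicase genes went both ways in printed cells: of 10 tested, 2 rose and 2 fell on the deposited scale, with a median of 0.05 (log2). None rose and 6 fell at equal FPKM totals, where 3.45% of all genes were called higher and 46.1% lower. The median was -0.67 there and -0.13 after quantile normalization, with the median gene at -0.51 and 0.03. EIF4G1, the main scaffold of the cap complex, lies at chr3:184314495-184335358 and was at 103, 106 and 109.5 FPKM in HepaRG plate, 174, 129 and 116 in M14A plate and 84.9 and 77.6 in printed cells. Both printed libraries lay below every plate library. Its fall was -0.76 ± 0.18 (SE, adjusted p = 0.014), to 0.581 times the M14A plate mean. EIF4G2, an eIF4G relative that lacks the eIF4E-binding part, was at 89.3, 91.9 and 87.6, 56.4, 75.6 and 75.7 and 87.4 and 102 FPKM and was not called in printed cells (0.45, adjusted p = 0.066), but was without M14A plate library 1 (0.31, adjusted p = 0.020). EIF4G3, a second cap scaffold, was at 10.2, 10.5 and 10.1 FPKM in HepaRG plate, 3.32, 6.22 and 5.96 in M14A plate and 3.75 and 4.88 in printed cells. EIF4G3 fell in M14A plate (-0.90 on the log2 scale, SE 0.20, adjusted p = 0.0096) with no overlap, under all 8 leave-outs, and was not called between printed and plate M14A (-0.18, adjusted p = 0.56) except without M14A plate library 1 (-0.42, adjusted p = 0.014).

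The 3 eIF4A genes had values in both directions. EIF4A2, one of 2 paralogs of the cap helicase, was at 34.2, 34.2 and 32.2 FPKM in HepaRG plate, 15.6, 31.2 and 33.6 in M14A plate and 46.5 and 51.02 in printed cells. M14A plate library 1 was the lowest of the 8, and EIF4A2 rose in printed cells (0.91 on the log2 scale, SE 0.29, adjusted p = 0.039). EIF4A1, the other paralog, was at 1.32, 1.28 and 0.952, 1.09, 1.26 and 1.29 and 0.478 and 0.487 FPKM and fell in printed cells (-0.58, adjusted p = 0.011). However 86.8% of the EIF4A1 coding bases and 48.6% of its exon bases lie in other annotated genes, AC016876.2 and SENP3-EIF4A1 among them, where counting per gene can leave out or split reads, so its level is uncertain. EIF4A3, a helicase of the exon junction complex, was not called (-0.21, adjusted p = 0.46). EIF4B, which stimulates eIF4A, was at 71.2, 70.5 and 71.5, 74.4, 71.4 and 70.7 and 87.8 and 101 FPKM and rose by 0.38 (adjusted p = 0.049), a value that turned to -0.37 at equal FPKM totals and -0.14 after quantile normalization. EIF4H, a further eIF4A stimulator, was at 100.01 ± 25.2 and 109 ± 5.62 FPKM in plate and printed M14A and was not called (0.15, and -0.60 at equal totals). It was called higher in printed cells without M14A plate library 1 (0.35, adjusted p = 0.0050).

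EIF4E, the cap-binding protein itself, was at 2.58, 2.44 and 2.58 FPKM in HepaRG plate, 1.34, 1.93 and 2.22 in M14A plate and 1.94 and 2.29 in printed cells. The M14A groups overlapped and EIF4E was called in neither comparison (-0.33 and 0.15, adjusted p = 0.10 and 0.49), the second value being -0.35 at equal FPKM totals. EIF4E2, a cap-binding homolog, lay between 7.81 and 10.7 FPKM in all libraries and was not called. Either printed library decided the falls in this group. EIF4A1 and EIF4G1 did not pass without either of the 2 printed libraries (adjusted p 0.055 to 0.084). EIF4A2 was not called higher without any 1 of the 3 HepaRG plate libraries or either of the 2 printed libraries (adjusted p 0.063 to 0.16). EIF4B lost its rise without any 1 of the 3 HepaRG plate libraries, M14A plate library 2 or 3 or either of the 2 printed libraries (adjusted p 0.077 to 0.26).

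Among the eIF4E-binding proteins, EIF4EBP1 showed the largest rise of any member in printed cells on the deposited scale and at equal FPKM totals. It was not the largest after quantile normalization or with the gene length trend removed. With that trend removed EIF3E was at 1.25 and EIF4EBP1 at 1.09. EIF4EBP1, a repressor of cap-dependent initiation, was at 153, 141 and 155 FPKM in HepaRG plate, 138, 112 and 109 in M14A plate and 348 and 279 in printed cells. Both printed libraries lay above all plate libraries, and the printed mean was 2.63 times the M14A plate mean. The log2 fold change was 1.39 ± 0.16 (SE), with an adjusted p of 0.00091, and EIF4EBP1 was still called at equal FPKM totals (0.62), after quantile normalization (0.51) and under all 8 leave-outs. The related EIF4EBP2 was at 18.2, 20.7 and 19.2 FPKM in HepaRG plate, 35.2, 27.3 and 26.3 in M14A plate and 21.7 and 22.9 in printed cells. EIF4EBP2 rose in M14A plate (0.58 on the log2 scale, SE 0.14, adjusted p = 0.015), and its lower printed values did not pass the test (-0.38, adjusted p = 0.095). EIF4EBP2 was called lower in printed cells without M14A plate library 1 (-0.26, adjusted p = 0.037), at equal FPKM totals and after quantile normalization. Without that library EIF4EBP1 was called lower in M14A plate (-0.44, adjusted p = 0.013).

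EIF4ENIF1, which carries eIF4E into the nucleus and represses translation, was at 4.05, 3.86 and 4.01 FPKM in HepaRG plate, 3.50, 2.51 and 2.59 in M14A plate and 1.51 and 1.65 in printed cells. The 3 groups did not overlap, and EIF4ENIF1 fell in printed cells (-0.57 on the log2 scale, SE 0.14, adjusted p = 0.015) but missed the threshold in M14A plate (-0.37, adjusted p = 0.052), which it passed without M14A plate library 1 (-0.49, adjusted p = 0.0015). EIF4EBP3 lay between 0.735 and 2.21 FPKM, overlapped between groups and shares 73.4% of its exon bases with the readthrough gene ANKHD1-EIF4EBP3. EIF4ENIF1 did not pass without either of the 2 printed libraries (adjusted p 0.056 to 0.086). EIF4EBP2 was not called in M14A plate without HepaRG plate library 1 or 3 (adjusted p 0.062 to 0.073). The repressor EIF4EBP1 and the scaffold EIF4G1, which bind eIF4E at the same surface, had log2 fold changes of 1.39 and -0.76 in printed cells. Those of EIF4EBP2, EIF4EBP3 and EIF4ENIF1 were -0.38, 0.23 and -0.57, of which only EIF4ENIF1 was called. The EIF4G1 call was lost without printed library 1 and without printed library 2. Any effect of these mRNA levels on cap binding was not tested.

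EIF5A, which carries the hypusine residue and helps ribosomes past difficult peptide bonds, rose in M14A plate, and again in printed cells on the deposited scale. It was at 108, 104 and 114 FPKM in HepaRG plate, 234, 169.7 and 156 in M14A plate and 349.5 and 289 in printed cells, and no group overlapped another. The change was 0.75 ± 0.17 (SE, adjusted p = 0.011) in M14A plate, called under all 8 leave-outs and at equal FPKM totals (0.55). In printed cells it was 0.79 ± 0.19 (adjusted p = 0.014), 0.03 at equal totals, and turned to -0.14 after quantile normalization. EIF5AL1, a near-identical copy on chromosome 10 whose reads may come from EIF5A, moved with it at 1.88 ± 0.202, 3.80 ± 0.876 and 6.51 ± 0.868 FPKM (SD, n = 3, 3 and 2), and was called higher in M14A plate (0.73, adjusted p = 0.0071). By the ratio of group means in M14A plate, EIF5AL1 was at 2.03, EEF1AKMT4 at 1.78 and EIF5A at 1.71. Of the EIF5A coding bases 37.2% lie in other annotated genes. EIF5A2, the second isoform gene, was not tested: it lay at 0.111 to 0.117 FPKM in HepaRG plate, at 0.00909 FPKM in M14A plate library 3, and was listed at 0 in the other 4 M14A libraries. EIF5A did not pass in printed cells without printed library 1 (adjusted p = 0.11). EIF5AL1 was not called there without M14A plate library 2 or printed library 1 (adjusted p 0.058 to 0.12).

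The elongation factors were the most abundant members. EEF1A1 (chr6:73515750-73523797), which delivers aminoacyl-tRNA, was at 1121, 1094 and 1124 FPKM in HepaRG plate, 1710.3, 1203 and 1214 in M14A plate and 2920.5 and 2705 in printed cells. Both printed libraries lay above every plate library, at 2.04 times the M14A plate mean. Its rise of 1.05 ± 0.17 (SE, adjusted p = 0.0025) was called under all 8 leave-outs, at equal FPKM totals (0.29) and after quantile normalization (0.20). In M14A plate EEF1A1 was not called (0.29, adjusted p = 0.18). Its processed pseudogene EEF1A1P5, listed at 90.7 to 226 FPKM, can take reads from it, so the level is uncertain. EEF1B2, the catalytic exchange subunit, was at 147, 138 and 160.2 FPKM in HepaRG plate, 227, 161 and 163 in M14A plate and 447 and 400.5 in printed cells. It rose by 1.22 ± 0.18 (adjusted p = 0.0019) under all 8 leave-outs, with 0.46 at equal totals and 0.23 after quantile normalization, also called.

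EEF1A2, the muscle and neuron paralog of EEF1A1, was at 29.6, 27.9 and 28.5 FPKM in HepaRG plate, 40.8, 20.2 and 19.5 in M14A plate and 46.7 and 26.3 in printed cells, with overlapping groups and no call (-0.17 and 0.46, adjusted p = 0.69 and 0.32). Its second value was -0.28 at equal FPKM totals and was called without M14A plate library 1 (0.79, adjusted p = 0.022). The median of the 5 eEF1 complex genes in printed cells was 0.47, and -0.021 at equal totals, where the median gene lay at -0.51. EEF1D, an exchange subunit, lay between 12.5 and 17.7 FPKM and was not called, and 34.0% of its exon bases are shared with other genes. EEF1E1, a small scaffold protein of the aminoacyl-tRNA synthetase complex, was at 1.84, 2.33 and 2.33 FPKM in HepaRG plate, 1.22, 1.77 and 1.18 in M14A plate and 2.16 and 2.43 in printed cells. It fell in M14A plate (-0.41, adjusted p = 0.049) and rose in printed cells (0.47, adjusted p = 0.043), the rise turning to -0.02 at equal totals. Of the EEF1E1 coding bases 41.5% lie in other annotated genes. EEF1E1 was not called in M14A plate without any 1 of the 3 HepaRG plate libraries, M14A plate library 1 or 3 or either of the 2 printed libraries (adjusted p 0.062 to 0.16). EEF1E1 lost its call in printed cells without any 1 of the 3 HepaRG plate libraries, M14A plate library 3 or either of the 2 printed libraries (adjusted p 0.062 to 0.19). EEF1G, the gamma subunit, was listed at 0 in every library. In GENCODE 29 all but 2 of its exon bases, 99.9%, lie also in AP002990.1, which was at 0.0863 to 0.394 FPKM, so nothing can be said of its level.

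EEF2, the translocase (chr19:3976056-3985469), was at 768, 778 and 834 FPKM in HepaRG plate, 1355, 898 and 779.9 in M14A plate and 1699 and 1332 in printed cells. The groups overlapped, with M14A plate library 1 above printed library 2, and EEF2 was called in neither comparison (0.31 and 0.61, adjusted p = 0.27 and 0.067). The 95% interval in printed cells was 0.10 to 1.13, and the value was -0.15 at equal FPKM totals and -0.53 after quantile normalization. Without M14A plate library 1 EEF2 was called higher in printed cells (0.85, adjusted p = 0.0014). The eEF1A lysine methyltransferases were low, at 0.370 to 13.3 FPKM. EEF1AKMT4 rose in M14A plate, from 5.62, 5.20 and 5.27 to 12.9, 8.23 and 7.50 FPKM (0.69 on the log2 scale, SE 0.19, adjusted p = 0.024), with 46.8% of its exonic sequence inside other genes. EEF1AKMT2 was at 1.11, 1.04 and 1.29, 0.370, 0.739 and 0.577 and 1.20 and 1.36 FPKM in HepaRG plate, M14A plate and printed cells. It fell in M14A plate (-0.46, adjusted p = 0.025) and rose in printed cells (0.55, adjusted p = 0.019), with no overlap in either comparison. Of the EEF1AKMT2 coding bases 62.1% lie in other annotated genes, and M14A plate library 1 held 25 reads, so its level is uncertain. EEF1AKMT1 and EEF1AKMT3 were not called, and EEF1AKMT4 was called in printed cells only without M14A plate library 1 (0.56, adjusted p = 0.0041). The median of the 4 methyltransferase genes in printed cells was 0.37, and -0.29 at equal FPKM totals, where the median gene lay at -0.51. EEF1AKMT2 and EEF1AKMT4 did not pass in M14A plate without any 1 of the 3 HepaRG plate libraries (adjusted p 0.056 to 0.095). EEF1AKMT2 was not called in printed cells without either of the 2 printed libraries (adjusted p 0.068 to 0.11).

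**Figure D3:**
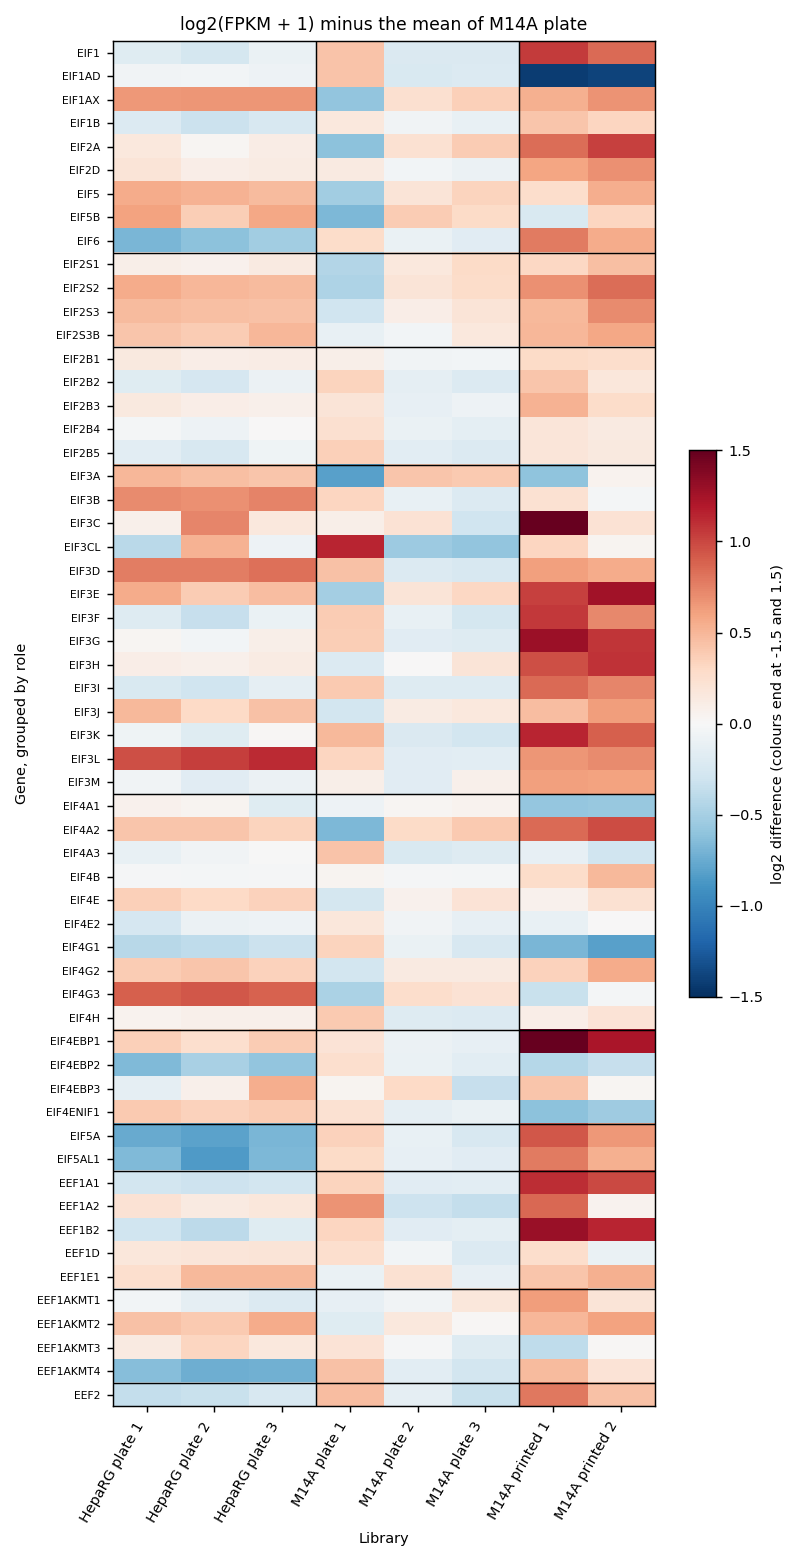
Each cell gives log2(FPKM + 1) of 1 tested member in 1 library minus its mean over the 3 M14A plate libraries; rows are the 58 members grouped by role and lines separate roles and groups. M14A plate library 1 differs from libraries 2 and 3 in many rows, and EIF4EBP1, EEF1A1, EEF1B2 and EIF3G are red in both printed columns while EIF1AD is blue.

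The tested members were also counted by their start sequence. Of the 13 members with the motif, 11 rose and none fell on the deposited scale, with a median of 0.64 (log2); EEF2 and EIF3D were not called. Of the 33 with other starts, 8 rose and 4 fell, with a median of 0.29. Of the 12 with no entry, 6 rose and none fell, with a median of 0.57. The 4 members that fell, EIF1AD, EIF4G1, EIF4A1 and EIF4ENIF1, are thus among those whose windows lack the run. The medians of the 13 and the 33 were -0.041 and -0.35 at equal FPKM totals. At that scaling the 13 had 2 rises and 1 fall (EIF4B), and all 13 lay above the median gene, against 21 of the 33. After quantile normalization 10 of the 13 and 17 of the 33 lay above it. Between M14A and HepaRG plate none of the 13 rose and 2 fell.

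Over all genes with a RefSeq start, 679 tested genes held the motif, of which 27.8% were called higher and 10.5% lower in printed cells, with a median of 0.15. Among the 8354 without it the shares were 17.2% and 16.4%, with a median of 0.00. With ribosomal protein genes and the members left out, 620 genes with the motif were called higher in 21.5% and lower in 11.3%. On the deposited scale the member medians of the classes with and without the motif lay above the medians of all genes of those classes. For members with no entry there is no such median over all genes. These counts describe the classes and carry no test, since the windows were read after earlier results were known.

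**Figure D4:**
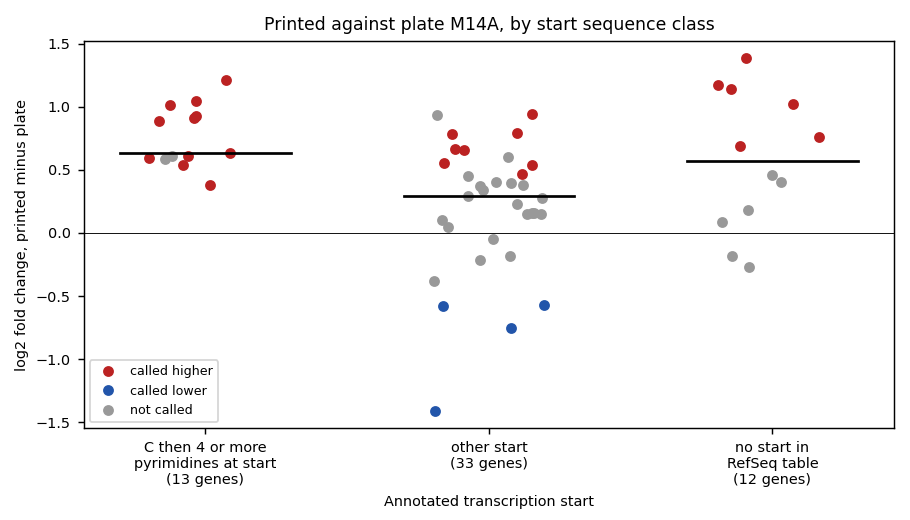
Log2 fold change between printed and plate M14A for the 58 tested members by the sequence at the annotated start; bars are class medians, and red, blue and grey points were called higher, lower or not called. All 13 members with the motif lie above 0 on the deposited scale (6 of 13 at equal FPKM totals), and the 4 called lower are in the class with other starts.

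Gene length moved with the fold changes over all genes. In printed against plate M14A the median of all genes was 0.21 for genes under 2000 bases, 0.20 from 2000 to 4000, -0.05 from 4000 to 8000 and -0.25 from 8000 bases. The members' medians in the same ranges were 0.54 (8 genes), 0.54 (16), 0.46 (25) and 0.15 (9), each above the median of all genes of that length. With the length trend removed, 21 members rose and 3 fell, where 15.2% of all genes were called higher and 14.7% lower. The fall of EIF4G1 was then no longer called (-0.56, adjusted p = 0.059). EIF6 was then at 0.37 (adjusted p = 0.069) and EIF4B at 0.49 (adjusted p = 0.016). All 25 members that rose kept their direction and 19 of them their call.

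**Figure D5:**
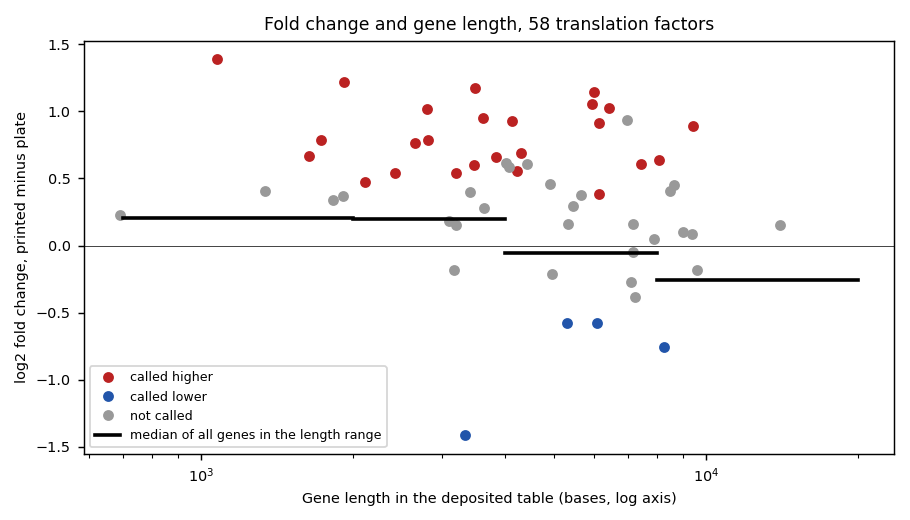
Log2 fold change between printed and plate M14A against gene length in bases (log axis) for the 58 tested members, coloured by call; horizontal bars give the median of all tested genes in 4 length ranges. The bars fall from 0.21 to -0.25 with length, and most members lie above the bar of their range on the deposited scale.

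The genes that control these factors were taken from 7 lists of 64 genes, 63 of them tested. On the deposited scale 9 rose and 8 fell in printed cells (median 0.06), and 6 rose and 9 fell in M14A plate (median -0.15). These are 14.3% and 12.7% of the 63 in printed cells and 9.52% and 14.3% in M14A plate, where 17.7% and 15.5%, and 16.1% and 14.7%, of all genes were called. Among 9 eIF2 kinase and phosphatase genes, 1 rose and 2 fell in printed cells. PPP1R15A, the stress-induced subunit that directs the phosphatase to eIF2, was at 33.5, 21.5 and 20.1 FPKM in M14A plate and 60.6 and 48.5 in printed cells (1.12, adjusted p = 0.0061). Its constitutive counterpart PPP1R15B was at 14.7, 14.3 and 14.5 and 7.35 and 8.07 FPKM (-0.83, adjusted p = 0.0018). The printed libraries lay above the plate libraries for PPP1R15A and below them for PPP1R15B. In M14A plate 1 of the 9 rose and 2 fell: EIF2AK3, the endoplasmic reticulum kinase PERK, went from 2.48, 2.47 and 2.35 to 3.12, 6.07 and 5.57 FPKM (0.75, adjusted p = 0.023). EIF2AK1, the heme-regulated kinase, went from 54.02, 56.2 and 54.9 to 34.9, 27.7 and 28.6 FPKM (-0.84, adjusted p = 0.0018). PPP1R15A did not pass without printed library 1 (adjusted p = 0.054). EIF2AK3 was lost without any 1 of the 3 HepaRG plate libraries or M14A plate library 2 or 3 (adjusted p 0.059 to 0.076).

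Of 15 genes of mTORC1 and eIF4F control, 3 rose and 4 fell in printed cells, and 1 rose and 3 fell in M14A plate. The rises in printed cells, on the deposited scale, were RHEB, MLST8 and RPS6KB2 (0.56, 0.70 and 0.65, adjusted p = 0.021, 0.042 and 0.042). No rescaled value is given for these 3, so whether they keep their direction at equal FPKM totals is not shown. RPTOR and MTOR fell there (-1.05 and -0.69, adjusted p = 0.0055 and 0.021), as did LARP1 and DDIT4. RPTOR was called under all 8 leave-outs, while MTOR, RHEB, MLST8 and RPS6KB2 each lost the call under at least 1. In M14A plate MKNK1 rose (0.42, adjusted p = 0.028) and TSC2 fell (-0.61, adjusted p = 0.045), neither under all 8 leave-outs. LARP1, which binds the pyrimidine start of terminal oligopyrimidine mRNAs, was at 33.1, 35.7 and 35.9 FPKM in HepaRG plate, 37.3, 27.7 and 24.7 in M14A plate and 13.1 and 12.8 in printed cells. It fell in printed cells (-1.13 on the log2 scale, SE 0.18, adjusted p = 0.0025) under all 8 leave-outs. DDIT4, an inhibitor of mTORC1 upstream of TSC, was at 80.97, 77.8 and 81.8 FPKM in HepaRG plate, 69.4, 38.6 and 33.4 in M14A plate and 15.9 and 14.4 in printed cells, and fell in both comparisons (-0.83 and -1.51, adjusted p = 0.032 and 0.0043). DDIT4 shares 41.2% of its exon bases with DDIT4-AS1. DEPTOR, a direct inhibitor of mTOR, fell in M14A plate from 1.80, 2.42 and 2.50 to 0.191, 0.410 and 0.349 FPKM (-1.30, adjusted p = 0.00014). For DDIT4 and DEPTOR the printed libraries were also below every HepaRG library. DDIT4 was not called in M14A plate without any 1 of the 3 HepaRG plate libraries or M14A plate library 2 or 3 (adjusted p 0.074 to 0.094).

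Elongation control, with 12 tested genes, held 1 rise and 1 fall in printed cells. EEF2K, the kinase that inactivates eEF2, was at 9.73, 6.50 and 6.13 FPKM in M14A plate and 3.47 and 2.87 in printed cells (-0.9997, adjusted p = 0.0048). DPH5, an enzyme of the diphthamide residue on eEF2, was at 8.77, 9.03 and 8.38 and 16.2 and 13.6 FPKM (0.71, adjusted p = 0.0053). Both held under all 8 leave-outs. DHPS, which starts hypusine formation on eIF5A, fell in M14A plate from 0.901, 1.26 and 1.29 to 0.312, 0.596 and 0.727 FPKM (-0.48, adjusted p = 0.039), and 85.0% of its coding bases lie in other genes. DHPS was not called without M14A plate library 1 or 2 or either of the 2 printed libraries (adjusted p 0.052 to 0.067).

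Among 8 termination, recycling and reinitiation genes, GSPT2, a paralog of the release factor eRF3, was at 6.01, 5.82 and 5.91 FPKM in HepaRG plate, 8.49, 8.02 and 7.38 in M14A plate and 2.51 and 2.47 in printed cells. It rose in M14A plate (0.37, adjusted p = 0.026) and fell in printed cells (-1.36, adjusted p = 0.00051), the latter under all 8 leave-outs. MCTS1, a reinitiation factor, was at 12.3, 11.6 and 11.6 and 20.3 and 19.4 FPKM in plate and printed M14A, a rise of 0.70 (adjusted p = 0.0039) that was -0.02 at equal FPKM totals. GSPT2 was not called in M14A plate without any 1 of the 3 HepaRG plate libraries or M14A plate library 2 (adjusted p 0.076 to 0.11). The poly(A)-binding partners PAIP1 and PAIP2, which stimulate and restrain initiation, rose in printed cells by 0.67 and 0.93, PAIP1 turning to -0.06 at equal totals. PAIP1 fell and PABPC4, a poly(A)-binding protein, rose in M14A plate (-0.56 and 0.56, adjusted p = 0.020 and 0.014). PAIP1 was not called in printed cells without either of the 2 printed libraries (adjusted p 0.069 to 0.083). PABPC4 and PAIP1 did not pass in M14A plate without any 1 of the 3 HepaRG plate libraries (adjusted p 0.059 to 0.091).

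The 10 mitochondrial translation factors, given for comparison with the cytosolic ones, held 1 rise and no fall in printed cells. TUFM, the mitochondrial counterpart of eEF1A, was at 302, 198 and 179.7 FPKM in M14A plate and 443 and 362 in printed cells (0.86, adjusted p = 0.018, and -0.07 after quantile normalization). In M14A plate TSFM, its exchange factor, rose by 0.48 (adjusted p = 0.037) and GFM2, a recycling factor, fell by 0.75 (adjusted p = 0.030). TUFM did not pass without M14A plate library 2 or printed library 1 (adjusted p 0.055 to 0.12). TSFM was not called without any 1 of the 3 HepaRG plate libraries, M14A plate library 3 or either of the 2 printed libraries (adjusted p 0.050 to 0.12). GFM2 did not reach the threshold without any 1 of the 3 HepaRG plate libraries (adjusted p 0.069 to 0.099). None of the 4 helicases and scanning partners was called in either comparison. DHX9, the most abundant of them, was at 34.7, 35.9 and 34.02, 18.2, 29.4 and 29.9 and 23.7 and 27.3 FPKM in HepaRG plate, M14A plate and printed cells (0.01 in printed cells, adjusted p = 0.98, and -0.72 at equal totals).

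The members not yet described were low or absent in these values. EIF4E3, a cap-binding homolog, lay between 0.319 and 0.964 FPKM and was not tested. Other annotated genes overlap 84.4% of its coding bases and 9.48% of its exon bases, so its level is uncertain. EIF4E1B, a germline form of eIF4E, and the readthrough genes EEF1AKMT4-ECE2 and EEF1E1-BLOC1S5 were listed at 0 in every library. All exon bases of those 2 readthrough genes are shared with other genes, so their reads could not be assigned to them by a count per gene. In total 8 members share at least 30% of their exon bases with other genes, and without them 24 members rose and 3 fell in printed cells, of 53 tested.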

How the data were processed

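RNA of 8 libraries was measured (HepaRG plate 3, M14A plate 3, M14A printed 2). The submitters' processing notes name HISAT2 2.0.5 and featureCounts 1.5.0-p3. Per the labels, 1 µg of RNA entered NEBNext Ultra libraries. The genome build, the strand setting and any poly(A) selection are not given in sources used here, but all 58735 genes have the coordinates of GENCODE 29 (GRCh38). The values are FPKM as deposited by the authors. Multiplied by gene length, each deposited FPKM was a whole number of reads (all values, tolerance 0.01), which gave the depth. The denominators of the deposited FPKM were 1.18 to 1.20 times these reads for the HepaRG libraries, 0.968 to 1.19 times for plate M14A, and 0.818 and 0.853 times for printed M14A. A single read on 1 kb of gene was worth 0.0435 to 0.0747 FPKM. There were 0 columns of per-sample values without a sample.

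The test covered 14349 genes that reached 1 FPKM in 2 or more libraries. Values were log2(FPKM + 1), fitted by limma 3.58.1 (R 4.3.3, eBayes with trend, two-sided). All 8 libraries entered a single fit of 3 group means, which left 5 residual degrees of freedom. Genes with a Benjamini-Hochberg adjusted p under 0.05, adjusted over every tested gene, were called. Fold changes on this scale understate changes of low genes. The procedure was tested on simulated data. Alternatives covered scaling, filters, pseudocounts, gene length, weights on recovered reads, a replicate block and single leave-outs. Named with the value in every library were the called members without overlap, up to 14 per comparison by size of change, and 13 fixed members. From each pathway list up to 2 called genes with the largest change were named, or the most abundant gene where none was called. Other members and genes named were chosen after their values were seen. The members, lists and tests were chosen with earlier results of these data known.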

Additional observations from a re-analysis of the deposited data

How the results depend on the processing

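The counts of called members in printed against plate M14A, 25 rises and 4 falls, changed most with the scaling. They were 4 and 17 at equal FPKM totals, 6 and 14 at equal totals without mitochondrial genes, and 15 and 8 after quantile normalization. The shares of all genes called higher and lower were 3.45% and 46.1%, 5.76% and 37.4%, and 16.8% and 15.8% in the same order. With no filter on low values 15 rose (5.60% of all genes), and with a filter at 5 FPKM 2 fell (16.0%). With only the groups compared in the fit 8 rose and 1 fell (9.72% and 8.56%), and at an adjusted p below 0.01 8 rose and 1 fell. No share over all genes is given at an adjusted p below 0.01. Over the single leave-outs 7 to 39 rose and 1 to 7 fell (7.99 to 28.4% and 8.62 to 27.1% of all genes). In M14A against HepaRG plate the falls numbered 7 on the deposited scale. They were 16 at equal totals, 13 after quantile normalization and 4 with a filter at 5 FPKM. They were 18 with the length trend removed and without M14A plate library 1, an alternative chosen after seeing the data. The shares of all genes called lower were 14.7% on the deposited scale, and 23.4%, 18.1%, 12.05% and 23.6% in the same order. At an adjusted p below 0.01 1 member rose and 2 fell. Over the single leave-outs 2 to 5 rose and 4 to 14 fell (11.1 to 20.3% and 8.61 to 22.7% of all genes). The causes of these changes were not tested. limma with voom weights on the recovered reads called 24 rises and 4 falls in printed cells (17.1% and 15.8% of all genes) and 5 and 9 in M14A plate (16.4% and 15.1%). With the replicate number as a block, the counts were 23 and 4 in printed cells (15.9% and 14.6% of all genes) and 5 and 7 in M14A plate (15.7% and 15.1%). The numbers are not stated to pair the libraries, and deviations of same-numbered libraries correlated at -0.071, 0.081 and -0.155 between the plate groups and at 0.487 and 0.365 between plate and printed M14A. Differently numbered libraries correlated at -0.099 to 0.157 and at -0.487 to 0.433. With 2 printed libraries the deviations of 1 mirror those of the other, so the values for printed cells are not independent. Changing the pseudocount, the trend in the variance or restricting the fit to protein-coding genes left each of the 4 counts within 1.5 times of its value. 

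In printed against plate M14A, some named genes changed the sign of their log2 fold change. After quantile normalization EIF5A turned to -0.14, EIF3I to -0.15, EIF6 to -0.032, EEF2 to -0.53, DHX9 to -0.25 and TUFM to -0.070. At equal FPKM totals EIF2S1 turned to -0.35, EIF2B5 to -0.53, EIF4E to -0.35, EIF6 to -0.090, EEF1A2 to -0.28, EEF2 to -0.15, PAIP1 to -0.062, MCTS1 to -0.016 and DHX9 to -0.72. At equal totals without mitochondrial genes EIF2S1 turned to -0.18, EIF2B5 to -0.37, EIF4E to -0.23, EEF1A2 to -0.10 and DHX9 to -0.55. With the length trend removed and without M14A plate library 1 DHX9 turned to -0.13. In M14A against HepaRG plate, some named genes changed the sign of their log2 fold change. With the length trend removed and without M14A plate library 1 EIF2S1 turned to 0.15 and EIF3A to 0.0067. At equal FPKM totals EIF2B5 turned to -0.032 and EIF4A1 to -0.088. At equal totals without mitochondrial genes EIF4A1 turned to -0.045. Over the single leave-outs these genes ranged as follows: EIF2S1 -0.23 to 0.13 in M14A plate, EIF2B5 -0.026 to 0.25 in M14A plate, EIF4A1 -0.053 to 0.071 in M14A plate, EEF1A2 -0.51 to 0.0060 in M14A plate, EIF3A -0.68 to 0.056 in printed cells and DHX9 -0.21 to 0.13 in printed cells. With 2 printed libraries the spread is borrowed from all groups. In simulated data 37% of 2-fold and 88% of 4-fold changes were recovered for printed against plate M14A. For M14A against HepaRG plate the shares were 34% and 94%. False calls numbered 23 and 15 in the same order, with 13667 and 13670 genes tested. The simulated libraries shared a common mean for each gene, apart from 100 genes changed at each fold. They thus held neither the unequal FPKM totals nor the gene length trend of the measured libraries, and far fewer changed genes than were called there. Whether these shares hold under those conditions, or at the uneven spread of the measured libraries, where M14A plate library 1 stood apart, was not tested.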
